A study of Mus musculus with 6 samples.

Results

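Ephrin-A ligands and EphA receptors were followed in MCEC with and without knockdown of Fat4. MCEC is a cultured cell line named for the endothelium of the mouse heart, but most endothelial marker genes were barely detected, as given below. The members were 10 genes chosen by symbol, 5 ligands (Efna1, Efna2, Efna3, Efna4 and Efna5) and 5 receptors (Epha2, Epha3, Epha4, Epha5 and Epha7), among 78317 gene rows. Each symbol stood on 1 row. RNA was sequenced in 3 control libraries, labelled wild type, and in 3 libraries labelled ShFat4, which carry a short hairpin RNA against the atypical cadherin gene Fat4. The sources used here do not give whether the controls carried a non-targeting hairpin, whether the knockdown line was a clone or a pool, or whether replicates were grown apart. The p-values therefore reflect only how much libraries of a group varied, and that variation may be technical.

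Ephrins and Eph receptors signal between touching cells. Ephrin-A proteins are held on the membrane by a lipid anchor, and EphA proteins are receptor tyrosine kinases that cluster and signal when they meet them. Binding sends a signal into both cells, which mostly acts on the cytoskeleton and on adhesion and can push cells apart. In vessels the EphA2 receptor and its ligand ephrin-A1 are known for their part in angiogenesis, tumour vessels included.

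Fat4 itself (ENSMUSG00000046743, GRCm39 chromosome 3, 38941089 to 39066134) was scarce. Control replicate 1 had 10 Fat4 counts, control replicate 2 had 22 and control replicate 3 had 31.5, and the knockdown libraries had 8.5, 10 and 9. The groups overlapped, since control replicate 1 lay at 0.97 normalised CPM (counts scaled to library size) against 0.71 to 0.98 CPM in the knockdown. Fat4 was lower in the knockdown by the edgeR quasi-likelihood test across all genes (log2 fold change -1.17, SE 0.35, adjusted p = 0.033). Only the fit without control replicate 1 kept this call among the 6 that each omitted a library, and the highest adjusted p, 0.205, came without control replicate 3. The call was also lost with limma-voom (adjusted p = 0.0674) and with GC and length correction (log2 fold change -0.99, adjusted p = 0.0671). Total counts ran from 10305810 to 11870091 per library. Control replicate 1 was nearer to knockdown replicate 3 than to control replicate 3 (root mean square difference of log2 CPM 0.19 against 0.20 over 8687 genes), so results that change without it are given with and without it. Of 12 endothelial marker genes, 10 lay under 1 CPM in every library, and Vwf, Tie1, Cldn5, Erg, Emcn and Robo4 had no count in any. The summed level of the 12 was 10.3 to 10.6 CPM in control and 9.48 to 10.7 CPM in knockdown libraries. That of 10 mesothelial genes was far higher, at 1715 to 1814 CPM in control and 1517 to 1561 CPM in knockdown libraries. So was that of 7 fibroblast genes, at 2388 to 2472 and 1789 to 1951 CPM. The endothelial markers listed do not bear out the name of the line.

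Across 13372 genes tested, 17.4% changed (adjusted p under 0.05), 8.44% downward and 8.94% upward. Scaling by library size alone made 33.0% of the called genes higher, against 51.4% with the TMM scaling used here. Of the 10 members, 8 had enough counts to be tested. Among them 2 fell, the receptor gene Epha4 and the ligand gene Efna2, and 0 rose. With 8 genes tested, 1 gene more or fewer moves such a share widely, and nothing about the set was read from it. An unadjusted p under 0.05 was found for 5 of the 8 (Efna1, Efna2, Efna5, Epha4 and Epha7), against 31.2% of all genes. The fitted change was below 0 in 7 of the 8, against 52.2% of all genes tested, and the median log2 fold change was -0.20 against -0.01 over all genes. The groups did not overlap, with the knockdown lower, in 4 members (Efna1, Efna2, Epha4 and Epha7), and this was so for 17.5% of all genes, or 34.9% counting either direction. Epha4 and Epha7 had the largest fitted changes, and of the other 6 members Efna2 had the largest (-17.2%).

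**Figure D1:**
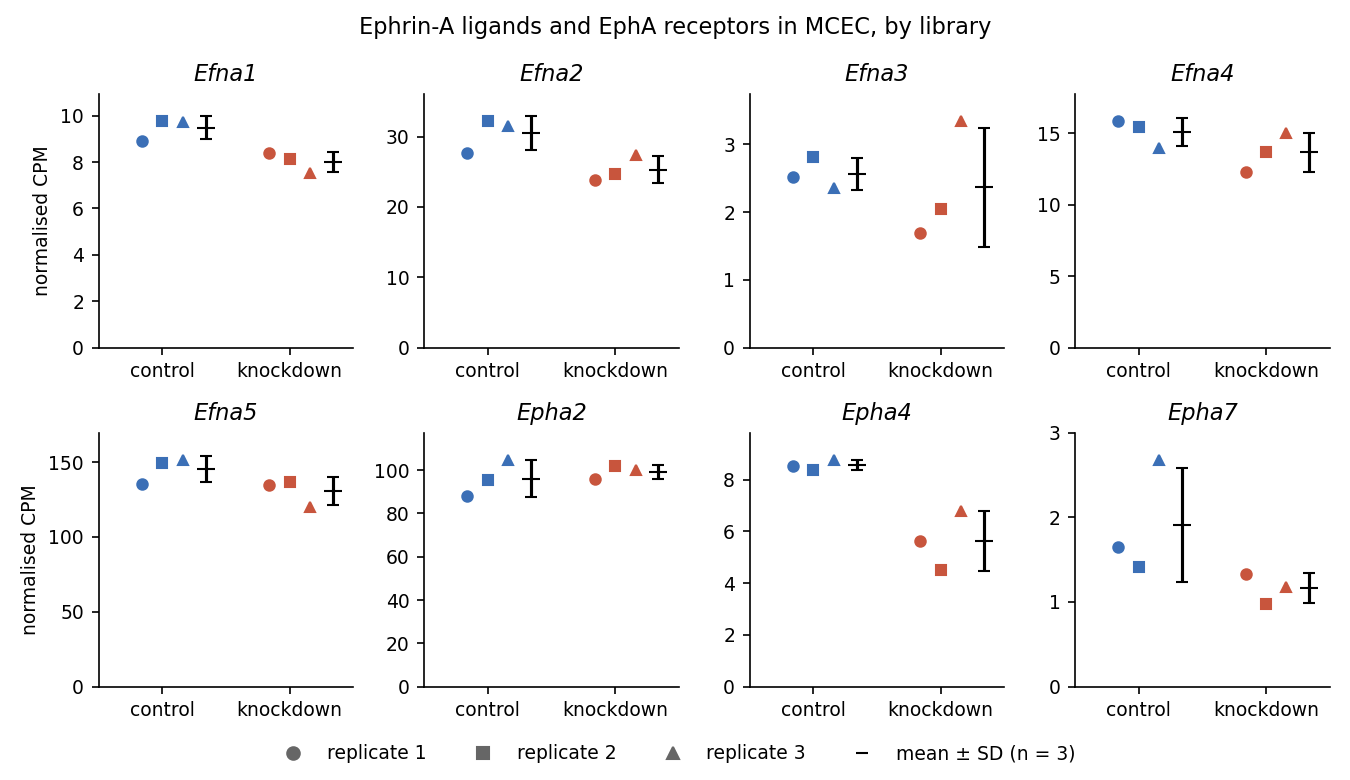
Normalised CPM (vertical axes from 0, different in each panel) of the 8 members tested, by library, with control in blue and Fat4 knockdown in red. Symbols mark the replicate number and bars give the mean ± SD of 3 libraries. The 3 Epha4 values of the knockdown, 4.50 to 6.79 CPM, lie below the 3 of the control, 8.37 to 8.77 CPM, while the Epha2 values of the groups overlap.

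Of the 10 members, a ligand gene had the highest level per length. Efna5, whose product also binds the class B receptor EphB2, stood at the top with a level per kb of exon of 36.1 ± 2.15 CPM per kb in control and 32.4 ± 2.25 in knockdown libraries (n = 3, ± SD). Efna2 followed among the ligands at 14.3 ± 1.14 and 11.9 ± 0.90 CPM per kb, then Efna4 at 9.44 ± 0.63 and 8.55 ± 0.86, then Efna1 at 5.18 ± 0.27 and 4.37 ± 0.24. Efna3 was lowest, at 1.05 ± 0.10 and 0.97 ± 0.36 CPM per kb. Neighbouring ligands in that order did not overlap in either group. These levels assume that reads cover whole transcripts, which the sources used here do not state. Efna5 made up 54.6% ± 1.04 of the summed ligand level per kb in control and 55.7% ± 3.41 in knockdown libraries.

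Efna2 (ENSMUSG00000003070, chromosome 10, 80015316 to 80025844) encodes ephrin-A2, a ligand best known from axon guidance. Its level was 27.7, 32.3 and 31.5 CPM in control replicates 1, 2 and 3 and 23.8, 24.6 and 27.4 CPM in knockdown replicates 1, 2 and 3. The groups did not overlap, but the lowest control and the highest knockdown library lay side by side. It fell by 17.2% (log2 fold change -0.27, SE 0.08, 95% interval -0.45 to -0.09, edgeR adjusted p = 0.037, p = 0.1 by a two-sided exact permutation test, which cannot go lower with 3 against 3). Leaving out control replicate 2, control replicate 3, knockdown replicate 1 or knockdown replicate 2 ended the call (adjusted p = 0.165, 0.116, 0.148 and 0.123), as did DESeq2 (0.119) and a correction for GC content and gene length (0.102). Without control replicate 1 its adjusted p was 0.0078.

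Efna5 (ENSMUSG00000048915, chromosome 17, 62911179 to 63188312) did not pass the test. It lay at 136, 149 and 152 CPM in control and 135, 137 and 120 CPM in knockdown libraries. Control replicate 1 lay within the knockdown range, so the groups overlapped. The log2 fold change was -0.16 (SE 0.07, 95% interval -0.30 to -0.01, edgeR adjusted p = 0.127). Without control replicate 1 the log2 fold change was -0.20 and the gene was called (adjusted p = 0.0308), as it was after correction for GC content and length (0.0355) and with library size alone as the scaling (0.038).

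Efna1, Efna3 and Efna4 lie next to one another on chromosome 3, all on the minus strand within 66.3 kb, with 0 other protein-coding genes between Efna1 and Efna4. Efna1 (ENSMUSG00000027954, 89179040 to 89188449), which encodes the main ligand of EphA2, lay at 8.91, 9.78 and 9.74 CPM in control and 8.37, 8.11 and 7.51 CPM in knockdown libraries. Every knockdown value was below every control value, yet the change did not pass the test over all genes (log2 fold change -0.25, SE 0.11, edgeR adjusted p = 0.147), and it was not called in any alternative run on it. Efna4 lay at 15.9, 15.4 and 14.0 CPM in control and 12.3, 13.7 and 15.0 CPM in knockdown libraries, overlapping groups with a log2 fold change of -0.14 (95% interval -0.36 to 0.08, edgeR adjusted p = 0.385). Efna3 had 26 to 32 counts in control and 19 to 37 in knockdown libraries, and its interval ran from -0.63 to 0.41 on the log2 scale (edgeR adjusted p = 0.803). A noncoding gene on the opposite strand, Gm15998, shares 755 exon bases with Efna3 and had 134 counts over the 6 libraries against 164 for Efna3. The sources used here do not state the strand setting of the counting, so reads of these overlapping genes may not be told apart. None of these 3 neighbours was called.

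Among the receptors, Epha2 held nearly the whole of the EphA level. It encodes the EphA2 kinase, widespread in epithelia and cultured endothelium, and stood at 20.6 ± 1.81 CPM per kb in control and 21.2 ± 0.69 in knockdown libraries, second only to Efna5 among the members. Epha4 followed at 1.06 ± 0.02 and 0.70 ± 0.14 CPM per kb, a level whose range overlapped that of Efna3 in both groups. Epha7 stood at 0.19 ± 0.07 and 0.12 ± 0.02 CPM per kb. Epha2 made up 94.2% ± 0.36 of the summed EphA level per kb in control and 96.3% ± 0.75 in knockdown libraries.

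Epha2 (ENSMUSG00000006445, chromosome 4, 141028551 to 141056695) did not pass the test. Its level was 87.9, 95.6 and 105 CPM in control and 95.7, 102 and 100.1 CPM in knockdown libraries. The knockdown values lay inside the control range. The log2 fold change was 0.05 (SE 0.07), and its 95% interval of -0.10 to 0.19 corresponds to a change of -6.81% to 14.4% (edgeR adjusted p = 0.704). The sign turned to -0.012 with library size alone as the scaling and to -0.010 without control replicate 1. The highest value of any alternative was 0.18, after GC and length correction (edgeR adjusted p = 0.0718).

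Epha4 (ENSMUSG00000026235, chromosome 1, 77343822 to 77491725) encodes a receptor that binds ephrins of both classes, and it fell. Its counts were 88, 95 and 108 in control and 63, 46 and 75 in knockdown libraries, where counting error alone gives a coefficient of variation of 11.2% at the mean count. On the normalised scale these are 8.53, 8.37 and 8.77 CPM against 5.61, 4.50 and 6.79 CPM. The 3 control values lay close together, the knockdown values were spread, and the groups did not overlap. Epha4 fell by 33.9% (log2 fold change -0.60, SE 0.14, 95% interval -0.90 to -0.30, edgeR adjusted p = 0.00962, two-sided exact permutation test p = 0.1). A called fall at least as large was seen in 1.26% of all genes tested. The call was lost without knockdown replicate 2 (log2 fold change -0.46, adjusted p = 0.0571), and it held in each of the other 16 alternatives run on it. Without control replicate 1 the adjusted p was 0.00981.

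Epha7, which encodes a receptor studied mostly in the nervous system, had few counts, 17, 16 and 33 in control and 15, 10 and 13 in knockdown libraries. The groups did not overlap, at 1.41 to 2.68 CPM against 0.98 to 1.34 CPM. The fitted log2 fold change was -0.72 (SE 0.30, 95% interval -1.36 to -0.09), which did not pass the test over all genes (edgeR adjusted p = 0.109). It was -0.38 without control replicate 3, the library with 33 counts.

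Epha3 and Epha5, both receptors of the developing nervous system, were at or near 0. Epha3 had 4 counts over the control and 2 over the knockdown libraries, or 0.12 CPM (95% Poisson interval 0.03 to 0.31) and 0.06 CPM (0.0073 to 0.22). Epha5 had 0 counts in all 6 libraries, where 3 counts, the number that a count of 0 allows, are 0.25 to 0.29 CPM per library. These intervals and limits cover counting error only. Of the remaining EphA receptor genes, Epha6 and Epha8 also had 0 counts, and Epha1 and Epha10 had at most 2 counts in a library.

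**Figure D2:**
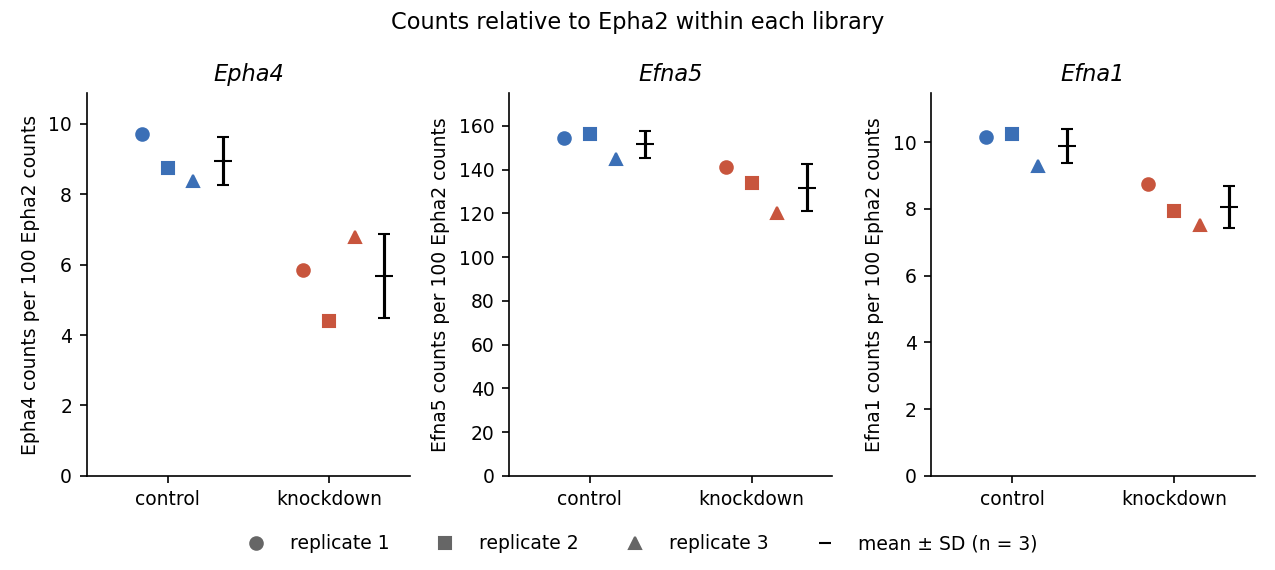
Counts of Epha4, Efna5 and Efna1 per 100 Epha2 counts of the same library (vertical axes from 0), with control in blue and Fat4 knockdown in red; bars give the mean ± SD of 3 libraries. In each panel the 3 knockdown values lie below the 3 control values, for Epha4 at 4.41 to 6.78 against 8.37 to 9.70. The ratios were chosen after the values were seen.

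Ratios of 2 members within a library do not depend on how libraries are scaled. The ratios given here were chosen after the values were seen. How often ratios of other gene pairs separate the groups was not computed, so nothing beyond the values is read from them. For every 100 Epha2 counts there were 9.70, 8.76 and 8.37 Epha4 counts in control and 5.86, 4.41 and 6.78 in knockdown libraries. The groups did not overlap, and the mean ratio fell by 36.4% (p = 0.1, two-sided exact permutation test). Efna5 gave 154, 156 and 145 counts per 100 Epha2 counts in control and 141, 134 and 120 in knockdown libraries. These ratios did not overlap either, a mean 13.1% lower (p = 0.1 by the same exact permutation test). The Efna5 level by itself did overlap between the groups. Epha2, the base of the ratio, was lowest in control replicate 1 (87.9 CPM), which makes the ratio higher in that library. Efna1 gave 10.1, 10.2 and 9.30 counts per 100 Epha2 counts in control and 8.74, 7.95 and 7.51 in knockdown libraries (p = 0.1 by the exact permutation test). Within the ligands, Efna2 gave 20.4, 21.6 and 20.8 counts per 100 Efna5 counts in control and 17.6, 18.04 and 22.8 in knockdown libraries, which overlapped (exact permutation test p = 0.4). Summed over members, the ligand level was 66.1 ± 3.15 CPM per kb in control and 58.2 ± 1.0 in knockdown libraries, and the EphA level 21.8 ± 1.87 and 22.1 ± 0.66 (± SD). The ligand sums did not overlap, at 62.5 to 68.3 against 57.6 to 59.3 CPM per kb, and the receptor sums did. In control libraries Efna5 made up 54.6% of the ligand sum and Epha2 94.2% of the receptor sum, and neither gene was called. The sums were not tested and do not stand for each ligand or receptor.

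In these bulk libraries, fewer cells that express a gene and less RNA per cell cannot be told apart. Summed levels of several marker lists of other cell types differed between the same groups. Of all genes tested, 8.44% were called lower and 8.94% higher. The lists are short, so nothing was read from how many of their genes were called. The summed level of 10 mesothelial genes was 1715 to 1814 CPM in control and 1517 to 1561 CPM in knockdown libraries, with 4 of 10 lower and 0 higher. That of 7 fibroblast genes was 2388 to 2472 and 1789 to 1951 CPM, with 2 of 6 tested lower, 1 higher and Lum at 0. That of 8 cardiomyocyte genes was 8.53 to 10.6 and 16.7 to 21.5 CPM, with 2 of 3 tested higher and Myh6, Nppa and Ryr2 at 0. Of these 8 genes, 5 lay under 1 CPM in every library. That of 5 mural cell genes was 132 to 143 and 157 to 163 CPM, with the 1 tested higher. The other 4 mural genes lay under 1 CPM in every library, so this sum is in effect 1 gene. That of 3 immune cell genes was 3.17 to 3.97 and 3.42 to 3.89 CPM, with 2 under 1 CPM in every library, Adgre1 at 0 and the 1 tested not called. The part of these shifts in the fall of Epha4 and Efna2 was not tested.

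The stretches of 250 bases before the start site show how the promoters of Epha4 and Efna2, which fell, compare in motif content with those of Epha2 and Efna5, the most abundant members, which were not called. They are RefSeq sequences of build GRCm38.p6, not the build of the count table, and capitals mark motif matches on either strand. The motifs searched and found there were the GC box, spelled GGGCGG, and the CCAAT box, spelled by its name. The others found were the core that TEAD factors, the partners of YAP, are known to bind, spelled GGAATG, and the cyclic AMP response element, spelled TGACGTCA. Epha4 is chr1:77515089-77515338 on the minus strand, Efna2 is chr10:80179232-80179481 on the plus strand, Epha2 is chr4:141300971-141301220 on the plus strand and Efna5 is chr17:62881318-62881567 on the minus strand. Each is written 5′ to 3′ toward its gene.
Epha4: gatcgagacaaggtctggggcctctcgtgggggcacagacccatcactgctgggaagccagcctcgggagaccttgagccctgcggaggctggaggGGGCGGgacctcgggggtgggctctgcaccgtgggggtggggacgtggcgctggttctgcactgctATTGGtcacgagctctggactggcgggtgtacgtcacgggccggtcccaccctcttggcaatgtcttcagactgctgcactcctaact
Efna2: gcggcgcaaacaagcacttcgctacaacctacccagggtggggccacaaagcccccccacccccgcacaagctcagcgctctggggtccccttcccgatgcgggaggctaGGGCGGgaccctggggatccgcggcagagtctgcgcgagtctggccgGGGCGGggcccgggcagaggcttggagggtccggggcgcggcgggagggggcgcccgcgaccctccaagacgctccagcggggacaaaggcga
Epha2: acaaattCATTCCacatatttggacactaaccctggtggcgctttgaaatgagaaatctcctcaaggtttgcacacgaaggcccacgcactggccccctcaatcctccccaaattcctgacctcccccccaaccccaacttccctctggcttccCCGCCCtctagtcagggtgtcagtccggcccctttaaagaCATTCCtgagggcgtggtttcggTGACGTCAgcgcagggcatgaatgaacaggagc
Efna5: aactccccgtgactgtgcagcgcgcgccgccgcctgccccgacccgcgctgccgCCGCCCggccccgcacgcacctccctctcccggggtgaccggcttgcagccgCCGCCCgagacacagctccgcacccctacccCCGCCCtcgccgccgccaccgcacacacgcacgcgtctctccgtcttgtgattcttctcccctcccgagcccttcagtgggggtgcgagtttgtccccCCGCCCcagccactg

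The windows of the 4 genes differ in which motifs they hold. The TEAD core stands 243 and 56 bases before the start of Epha2 and in none of the other 3 windows. Over all 10 members, which have 13 windows because some have more than 1 start, 2 windows hold it, those of Epha2 and of the nearly silent Epha3 (15.4%, against 12.6% of 32851 promoter windows of the same length). The cyclic AMP response element stands 33 bases before the start of Epha2, and 1.55% of all windows hold it. The GC box is in 11 of the 13 windows (84.6%, against 32.7% of all windows), among them those of all 4 genes printed. The GC content of the 13 windows ran from 54.4% (Efna4) to 74.8% (Efna5). That of all windows was not computed, so these shares are not matched for GC content. The CCAAT box is in 4 of the 13 (30.8%, against 33.8%), the Epha4 window included. The windows of Epha7 overlap, so a GC box and a CCAAT box of that gene are each counted in both. By gene, 8 of the 10 members have a GC box and 3 a CCAAT box, and the shares by gene over all genes were not computed. The AP-1 motif TGANTCA, the E-box CACGTG and the TATA box TATAAA are in 0 of the 13 windows, against 6.75%, 6.02% and 12.4% of all. No motif letters overlapped another motif in the 4 windows printed. These are matches of letters and show no binding.

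Class B genes, whose ephrins span the membrane and which EphA4 and ephrin-A5 can also bind, were split between called falls and values near 0. Of 8 class B genes, 6 were tested and 3 fell, the ligand gene Efnb1 and the receptor genes Ephb2 and Ephb3, with 0 higher (background 8.44% lower). Ephb2 lay at 14.0, 15.0 and 16.1 CPM in control and 8.19, 6.35 and 7.33 CPM in knockdown libraries, with no overlap and a log2 fold change of -1.04 (SE 0.12, edgeR adjusted p = 5.22e-05). Efnb1, whose log2 fold change was -0.73 (SE 0.07, edgeR adjusted p = 1.01e-05), lay at 64.7 to 70.5 CPM in control and 38.9 to 42.4 CPM in knockdown libraries. Ephb3 lay at 11.04 to 13.6 CPM and 8.46 to 9.78 CPM, with a log2 fold change of -0.47 (edgeR adjusted p = 0.0113). Omitting control replicate 2, or knockdown replicate 1, ended the call of Ephb3 (adjusted p = 0.0614 in both), as did GC and length correction (log2 fold change -0.30, adjusted p = 0.108). Efnb2 and Ephb4, the pair known for marking arteries and veins, did not pass the test, with 95% intervals of -0.17 to 0.11 and -0.31 to 0.10 on the log2 scale. Whether class A and class B differ was not tested. The Epha4 count per 100 Ephb2 counts was 61.2, 56.05 and 54.5 in control and 68.1, 70.8 and 92.6 in knockdown libraries, higher in each of the 3 knockdown libraries (two-sided exact permutation test p = 0.1). Both genes were called lower, with the larger fall in Ephb2, so a higher ratio follows from those values. This ratio too was chosen after the values were seen, and it is no comparison of the classes.

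**Figure D3:**
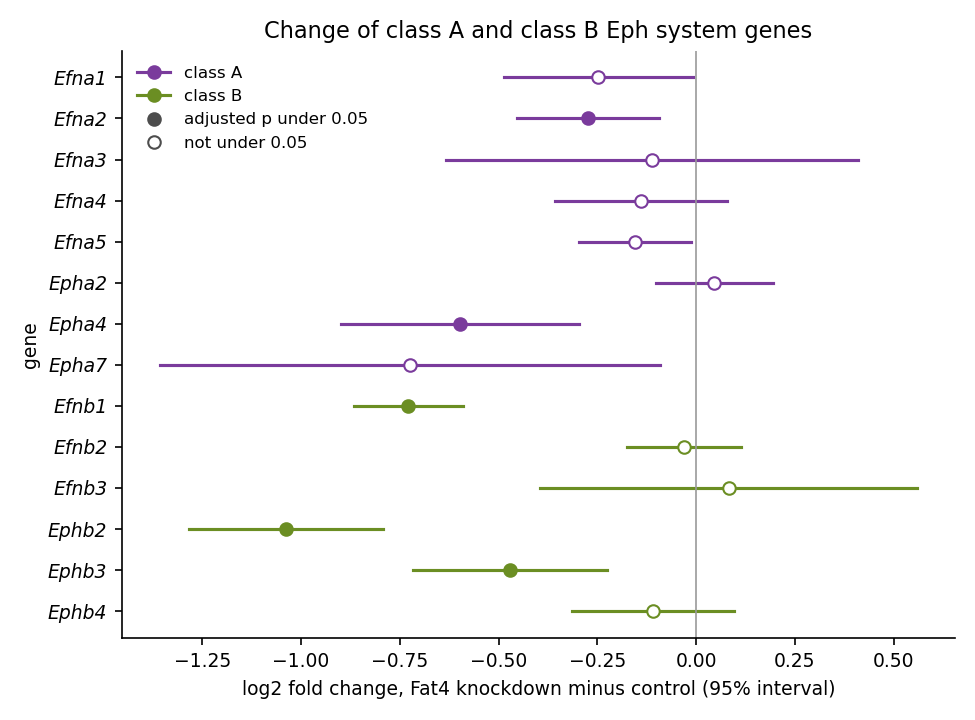
Log2 fold change (knockdown minus control) with its 95% interval for the 8 class A genes and 6 class B genes tested; filled points have an edgeR adjusted p under 0.05. The filled class A points are Efna2 at -0.27 and Epha4 at -0.60, and the filled class B points are Efnb1, Ephb2 and Ephb3.

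Genes that act with Eph receptors moved mostly by small amounts. Of 50 listed effectors, adaptors, phosphatases, proteases and co-receptors, 39 were tested, 7 fell and 2 rose (23.1% called, against 17.4% of all genes). With library size alone as the scaling, 11 fell and 0 rose. Their median log2 fold change was -0.09, against -0.01 over all genes. Cbl, which encodes a ubiquitin ligase that marks active receptor kinases such as EphA2 for degradation, lay at 88.1, 90.8 and 90.5 CPM in control and 49.3, 53.4 and 58.7 CPM in knockdown libraries. It fell by 40.1% (log2 fold change -0.74, SE 0.07, edgeR adjusted p = 1.17e-05), and the call held in all 18 alternatives. Mmp14 encodes a membrane metalloproteinase that can cleave EphA2, and it fell from a mean of 43.8 ± 3.49 CPM in control to 32.5 ± 3.40 CPM in knockdown libraries, a log2 fold change of -0.43. Chn2, which encodes a chimaerin that switches off Rac, fell from 38.9 ± 0.94 to 29.1 ± 1.6 CPM, a log2 fold change of -0.42. Pik3r1, the regulatory subunit gene of PI3 kinase, fell by 0.36 on the log2 scale (adjusted p = 0.0314 with edgeR), and 7 of 18 alternatives ended its call.

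The other genes of that list that fell were Tiam1 (log2 fold change -0.34), which encodes an activator of Rac, Rock2 (-0.31), which encodes a kinase that drives actomyosin contraction, and Adam10 (-0.19), a protease that cuts ephrin-A proteins from the membrane. The call of Rock2 was lost without knockdown replicate 1 (adjusted p = 0.0526), and that of Adam10 in 10 of 18 alternatives. After GC and length correction the fall of Tiam1 was smaller (log2 fold change -0.20, adjusted p = 0.0328). The adaptor gene Nck1 rose (log2 fold change 0.36, edgeR adjusted p = 0.0393), as did Cdc42 (0.16, adjusted p = 0.045), which encodes a small GTPase of the actin system. Both calls were lost in several alternatives, 7 of 18 for Nck1 and 9 of 18 for Cdc42, among them GC and length correction, where Cdc42 was at 0.05 on the log2 scale. Without control replicate 3 the log2 fold change of Nck1 was 0.22 (adjusted p = 0.204), and library size alone put Cdc42 at 0.11 (adjusted p = 0.183). Of the 3 neurotrophin and GDNF receptor genes listed, which can carry ephrin-A signals inward in neurons, Ngfr and Ntrk2 had no count and Ret was near 0.

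**Figure D4:**
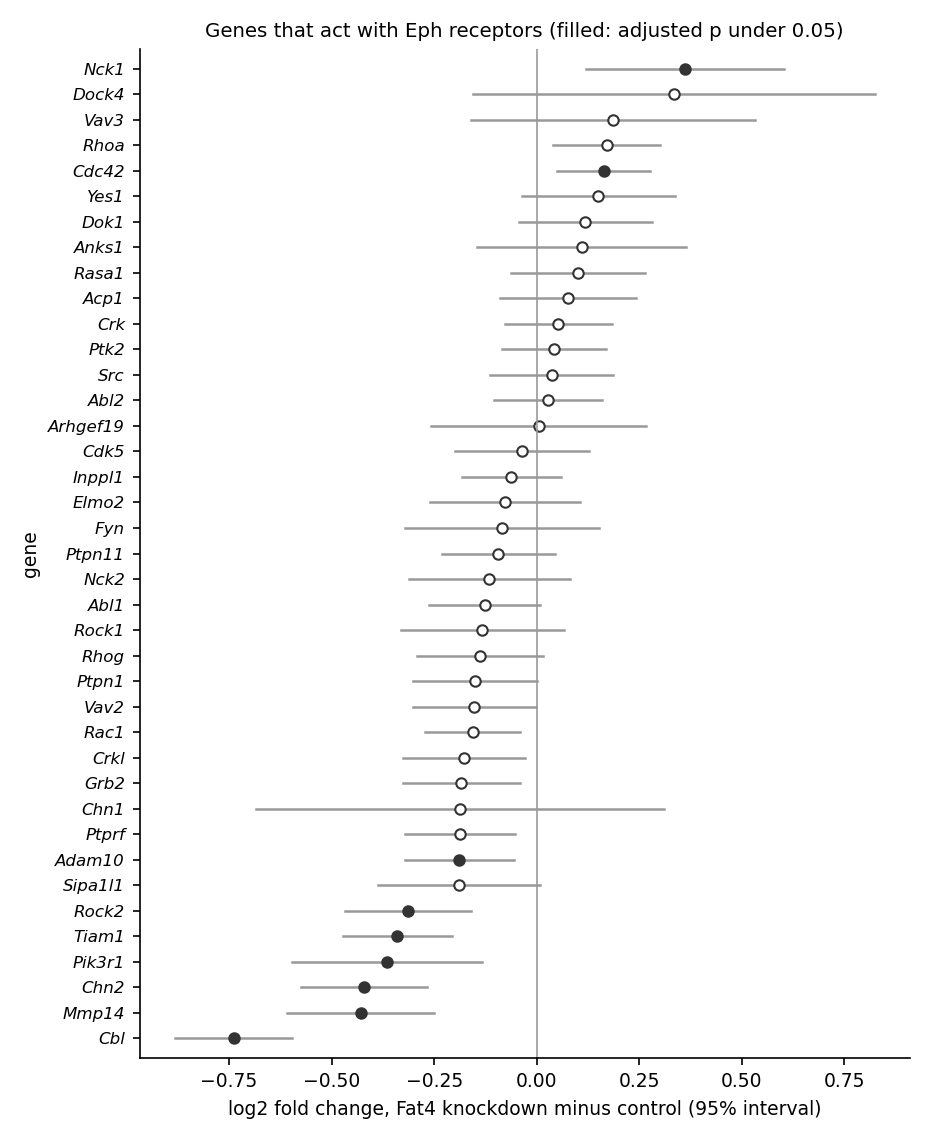
Log2 fold change (knockdown minus control) with its 95% interval for the 39 tested genes of the list, ordered by value; filled points have an edgeR adjusted p under 0.05. Filled points are 7 below 0, from Adam10 at -0.19 to Cbl at -0.74, and 2 above 0, Cdc42 at 0.16 and Nck1 at 0.36.

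**Figure D5:**
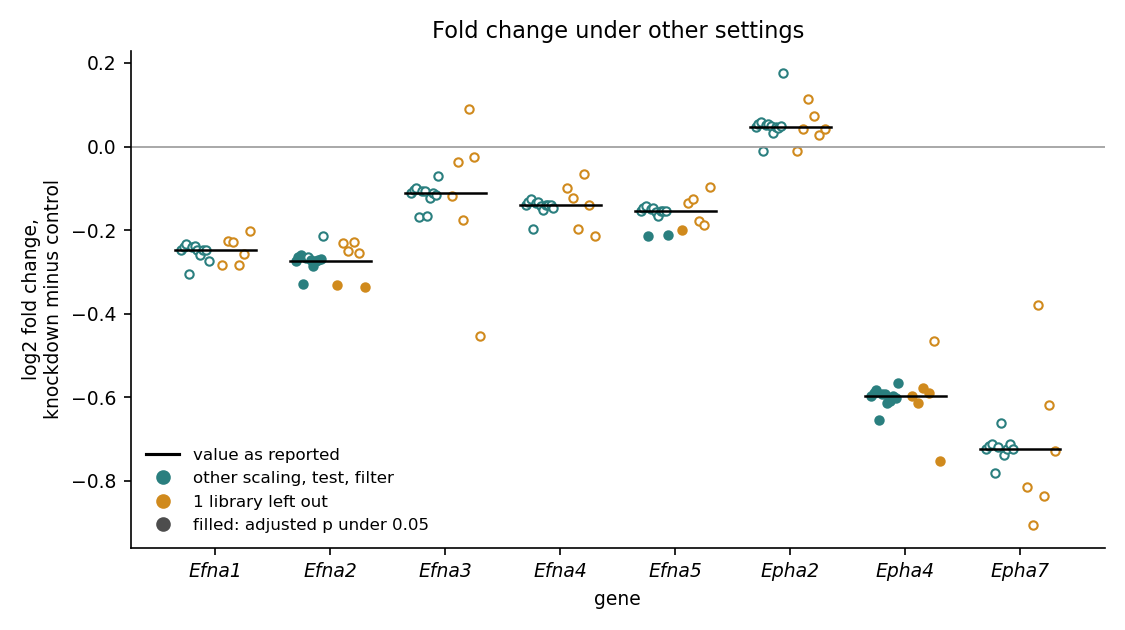
Log2 fold change of the 8 members tested under other scalings, tests and filters (teal) and with 1 library left out (orange); black lines give the values as reported and filled points have an adjusted p under 0.05. The Epha4 points lie between -0.75 and -0.46 and are filled except without knockdown replicate 2, and the Epha2 points lie between -0.012 and 0.18.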

How the data were processed

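Messenger RNA was sequenced as tagmented cDNA, per the labels' protocols. Per the submitters' processing notes, the tools were STAR 2.7.11 for build GRCm39, with fastp 0.24.0, FastQC 0.12.1, MultiQC 1.32 and SAMtools 1.22.1. The sources used here do not name the counter, its strand setting or the annotation release. Per the file headers, the authors deposited an estimated count and a CPM value per gene and library; each CPM, as deposited, equals the count divided by the library total. Of the nonzero counts, 29.0% were not whole (tolerance 1e-06). Here counts were rounded to whole numbers, 92 spike-in rows left out, genes kept by filterByExpr and scaled by TMM. Knockdown was tested against control with edgeR 4.0.16 in R 4.3.3 (glmQLFit with a robust prior, glmQLFTest), with Benjamini-Hochberg adjustment over 13372 genes at 0.05. Normalised CPM use TMM-scaled totals, and CPM per kb divides them by the deposited exon length. The SE is the log2 fold change divided by the square root of F.

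Alternatives were scaling by RLE, by upper quartile or by library size alone, leaving mitochondrial and ribosomal protein genes out of the scaling, DESeq2 1.42.0, limma-voom (limma 3.58.1), no filter, at least 10 CPM in 3 libraries, rounding down, a replicate block, GC and length correction (mgcv 1.9-3) and each library left out. The plan did not state whether the prior was robust. The robust prior was used because it gives the counts of an earlier account of the whole series. The fit without it was added after seeing the data, as were the ratios of genes. GC content came from GENCODE transcripts of GRCm38, matched by gene identifier for all 10 members. The workflow was tested on simulated counts, where changes were planted only in genes above 10 CPM. Epha4, Efna1, Efna3, Epha7 and Fat4 lie below that level, so the simulation does not cover changes in them. The members and lists were chosen with earlier results of these data known. Besides Fat4 and the members, the text names class B genes that were called or reached 10 CPM and all called genes of the list of Eph partners, whose rule took the 4 largest changes each way; Tiam1, Rock2 and Adam10 were named beyond it after their values were seen, as were genes at or near 0.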

Additional observations from a re-analysis of the deposited data

How the results depend on the processing

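The count of called genes, 2324, was 1498 with DESeq2 and ran from 1029 to 3077 with 1 library left out. It fell to 1029 without control replicate 2, 1226 without control replicate 3, 1216 without knockdown replicate 1 and 1165 without knockdown replicate 2. Of the members, 2 were called as reported, 1 with DESeq2 and 1 with the filter at 10 CPM, which leaves Epha4, Epha7, Efna1 and Efna3 untested, and from 0 to 3 with 1 library left out. The Eph partner list had 9 called genes, and from 4 to 15 with 1 library left out; the class B list had 3, and from 2 to 3. Without control replicate 1 the counts were 3077 genes, 3 members and 15 partners. With knockdown replicate 1 omitted, 1 member and 4 partners were called, and with control replicate 2 or 3 omitted, 1 member and 5 partners; without knockdown replicate 2 there were 0 members. The log2 fold change turned sign for Epha2 with library size alone (-0.012), and after GC and length correction for Efnb2 (0.048) and Ephb4 (0.040). With 1 library left out it ran from -0.010 (control replicate 1) to 0.11 for Epha2, from -0.45 to 0.089 (knockdown replicate 1) for Efna3, and from -0.066 to 0.037 (control replicate 3) for Efnb2. None of these 4 genes was called under any of these settings, and the cause of the changes in count or sign was not tested. DESeq2 gave no adjusted p for Epha7 or Fat4. Same-numbered libraries did not deviate together: their correlations over 8687 genes were -0.20, -0.16 and 0.14, and 1 of 3 control libraries correlated best with its own number. With the replicate number as a replicate block, 2001 genes and 2 members were called, and Epha4 had an adjusted p of 0.0177 and Efna2 of 0.0416; the block ended the call of Pik3r1 (0.0578). Depth limits Epha3, Epha5, Epha7 and Efna3, whose counting error is large.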

Other observations

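Over the 6 libraries, the genes whose normalised pattern lay nearest to that of Epha4, each centred on its own mean, were Tmem127, Eng and Fndc3b (root mean square difference of log2 CPM 0.10 for each, among 8042 genes with at least 10 CPM on average). Those nearest to Efna2 were Trp53i13 (0.02), Gaa (0.03) and Cerk (0.03). Cerk itself did not pass the test (log2 fold change -0.24, edgeR adjusted p = 0.0781), and the other 5 were lower in the knockdown. With 2 groups of 3 libraries such a distance mostly reflects the difference between the groups, and it is given as a description.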
